A study of Mus musculus with 16 samples.

Results

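The ADAMTS proteases are secreted metalloproteinases that carry a disintegrin-like domain and thrombospondin motifs. The transcripts of 10 of them, Adamts1, Adamts2, Adamts4, Adamts5, Adamts6, Adamts9, Adamts10, Adamts12, Adamts16 and Adamts20, were followed in mouse dorsal root ganglia (DRGs). The members were taken by symbol from the 52636 genes in the count tables, and all 10 of 10 passed the filter on low counts that left 21371 genes for testing. RNA came from L3-6 DRGs of 16 male C57Bl6/J mice of 3 to 4 months, with 4 mice in each group and 1 mouse per library. Sham-Saline mice had sham surgery and saline injections, and SNI-Saline mice had tibial spared nerve injury (SNI), in which the common peroneal and sural nerves are tied and cut, and saline. Sham-DMI and SNI-DMI mice had the same surgeries and the tricyclic antidepressant desipramine (DMI) at 15 mg/kg, injected 2 times a day for 3 weeks. The labels start treatment 4 weeks after surgery, whereas the study's methods give 4 months. No animal was left without surgery or injections, and whether ganglia of the operated side alone were pooled is not given in the sources used here.

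ADAMTS enzymes are made as inactive precursors, are activated by furin-type convertases and cut proteins of the extracellular matrix. Adamts1, Adamts4, Adamts5, Adamts9 and Adamts20 belong to the branch that cleaves the hyalectans, the large proteoglycans aggrecan, versican, brevican and neurocan that bind hyaluronan. Adamts2 removes the amino-terminal propeptide of fibrillar procollagens, and Adamts6 and Adamts10 are close relatives linked to fibrillin microfibrils. Adamts12 cleaves cartilage oligomeric matrix protein, and Adamts16 is a relative of Adamts18. In nervous tissue, hyalectans form nets around neurons and limit the growth of axons. The inhibitor Timp3 blocks several of the hyalectan-cleaving members, and the receptor Lrp1 clears some of them from the surroundings of the cell.

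Reads on genes ran from 41194238 to 73920332 per library, and the members were covered by 30 to 138 reads per library for Adamts4, the least covered, and 2381 to 4617 for Adamts5, the most covered. The labels name both the spinal cord and the DRGs. The summed level of 9 markers of DRG neurons was 5560 to 6470 CPM (counts scaled to a common library size) in each library, and that of 7 spinal cord markers was 7.89 to 15.1 CPM, with Olig2 at 0 in 5 libraries, Opalin at 0 in 2 and Slc6a5 at 0 in 1. Markers of injured sensory neurons, summed per library, ran between 43.2 and 55.1 CPM for Sham-Saline and between 183 and 205 CPM for SNI-Saline. With DMI their sum was 57.7 to 89.5 CPM after sham surgery and 164 to 296 CPM after injury. Markers of skeletal muscle reached 257 CPM in SNI-DMI replicate 2, 71.5 in SNI-Saline replicate 2 and 44.7 in Sham-Saline replicate 1, against 1.59 to 15.9 in the other libraries. The library numbers of the 8 saline mice (33 to 40) and of the 8 DMI mice (17 to 24) form separate runs, and within the saline mice SNI-Saline holds 33 to 36 and Sham-Saline 37 to 40. Any effect of the order these numbers may stand for and the effects of DMI or injury cannot be told apart.

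Adamts1 and Adamts5 are neighbours on the minus strand of chromosome 16 (GRCm38). Adamts1 (ENSMUSG00000022893, chr16:85793827-85803113) and Adamts5 (ENSMUSG00000022894, chr16:85856173-85901828) are separated by 53.1 kb with 0 listed genes between them. Adamts4 (ENSMUSG00000006403) lies on the plus strand at chr1:171250421-171260637. Adamts20 (ENSMUSG00000022449) lies on the minus strand at chr15:94270163-94465418, and Adamts16 (ENSMUSG00000049538) on the minus strand at chr13:70727802-70841811. Adamts9 (ENSMUSG00000030022, chr6:92772699-92943492, minus strand) shares 1381 exonic bases with A730049H05Rik and 424 with Gm15737. Adamts2 (ENSMUSG00000036545, chr11:50602084-50807573), Adamts6 (ENSMUSG00000046169, chr13:104287835-104496695), Adamts10 (ENSMUSG00000024299, chr17:33524204-33553782) and Adamts12 (ENSMUSG00000047497, chr15:11064790-11349231) all lie on the plus strand. The counting made no visible use of strand, so reads from these shared stretches were left out of either gene.

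The 250 bases before the transcription start were found for 5 of the 10 members in RefSeq (GRCm38.p6). Those of Adamts1 and Adamts20 are shown because these members passed one of the rules for a change under DMI that are described further on. Capitals mark the GC box (GGGCGG on either strand) and the TATA box (TATAAA on either strand), and each run ends at the base before the start. The Adamts1 stretch is chr16:85803114-85803363 and the Adamts20 stretch is chr15:94404351-94404600, both on the minus strand and written 5′ to 3′.
Adamts1: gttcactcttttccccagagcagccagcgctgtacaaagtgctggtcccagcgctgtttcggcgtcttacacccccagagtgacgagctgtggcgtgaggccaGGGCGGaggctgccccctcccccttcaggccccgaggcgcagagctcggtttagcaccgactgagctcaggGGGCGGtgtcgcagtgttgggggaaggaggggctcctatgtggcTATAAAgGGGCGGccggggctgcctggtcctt
Adamts20: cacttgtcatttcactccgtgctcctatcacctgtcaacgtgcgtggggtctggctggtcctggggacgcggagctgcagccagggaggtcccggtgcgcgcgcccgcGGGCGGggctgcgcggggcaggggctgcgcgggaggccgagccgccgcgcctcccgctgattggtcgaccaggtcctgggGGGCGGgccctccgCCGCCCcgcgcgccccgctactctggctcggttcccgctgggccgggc
Adamts1 held 3 GC boxes, at -147, -76 and -25 from the start, and a TATA box at -32, next to the last of them. Adamts20 held 3 GC boxes and no TATA box, and its RefSeq start lies inside the longer span that GENCODE gives the gene. Adamts2 held 5 GC boxes, Adamts9 held 1 and Adamts12 held 0. A GC box was present in 32.7% and a TATA box in 12.4% of 32851 mouse promoter stretches of the same length. Neither the AP-1 letters TGANTCA (6.75% of the stretches) nor the CRE letters TGACGTCA (1.55%), searched on both strands, occurred in these 5 windows.

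Adamts5 had the highest level of the 10 members per length of exon. To compare genes, CPM was divided by the exon length, and Adamts5 stood at 6.14 ± 0.306 CPM per kb (SD, n = 4) in Sham-Saline, 32.8% of the summed level of all 10. It was followed by Adamts10 (3.27 ± 0.288 CPM per kb) and Adamts1 (3.02 ± 0.544), whose ranges overlapped. Adamts2 (1.93 ± 0.373 CPM per kb) and Adamts20 (1.79 ± 0.181) overlapped in turn and lay below Adamts1, and Adamts9 stood below both at 1.14 ± 0.182. The lowest levels belonged to Adamts16 (0.532 ± 0.106 CPM per kb), Adamts6 (0.418 ± 0.0212), Adamts4 (0.253 ± 0.0618) and Adamts12 (0.215 ± 0.0258). Within this last set Adamts16 overlapped Adamts6 and Adamts4 overlapped Adamts12, while Adamts6 and Adamts4 did not overlap. Among all tested genes the members ranged from percentile 13.4 of level per kb (Adamts12) to percentile 65.1 (Adamts5). Summed over the 10 members, the level was 18.7 ± 1.59 CPM per kb for Sham-Saline and 18.3 ± 1.61 for SNI-Saline. With DMI this sum was 15.8 ± 1.81 CPM per kb after sham surgery and 17 ± 1.11 after injury.

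**Figure D1:**
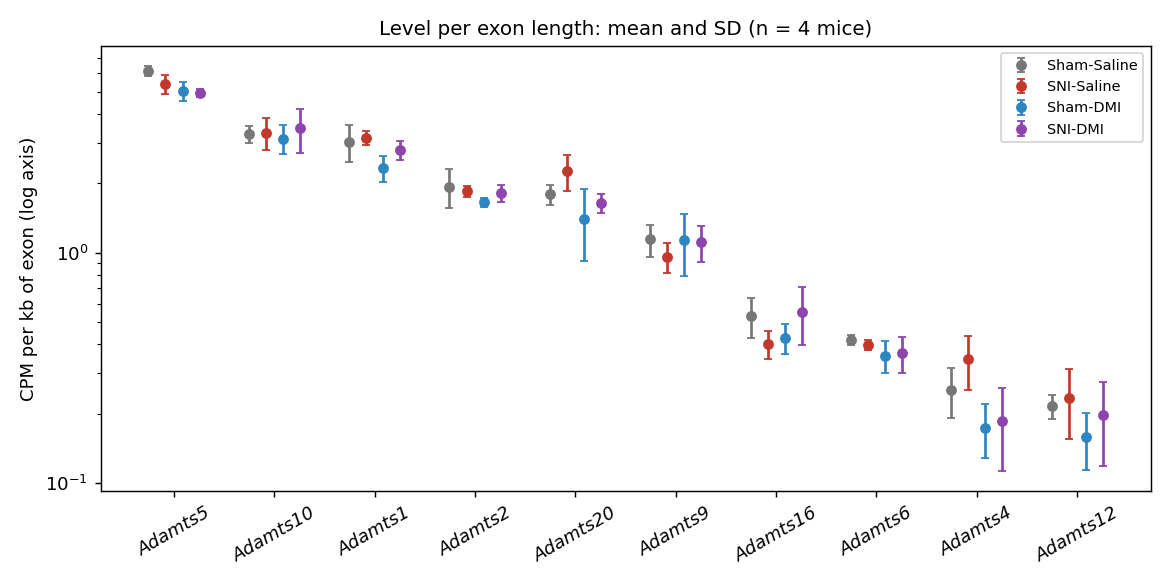
Level of the 10 ADAMTS members per exon length (CPM per kb, log axis) in the 4 groups, with points for group means and bars for the SD over 4 mice. Genes are ordered by their Sham-Saline level, from Adamts5 at 6.14 to Adamts12 at 0.215 CPM per kb.

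With DMI in sham-operated mice, Adamts5, an aggrecanase, and Adamts1, which cleaves versican and aggrecan, were lower in Sham-DMI than in Sham-Saline, and the other 8 members did not pass the test. The call was an adjusted p under 0.1 in edgeR's quasi-likelihood test with Benjamini-Hochberg adjustment over all genes. It was met by 2 of 10 members and by 23.4% of all tested genes, so the share of members called was near that of all genes. In bulk RNA, fewer cells of a type and less RNA per cell cannot be told apart. The p-values set each group difference against the spread between mice, which the fit estimates over all 16 libraries.

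Adamts5 had 62.2, 65.2, 69.5 and 68.4 CPM in the Sham-Saline mice and 47.7, 53.7, 59.5 and 56.2 CPM in the Sham-DMI mice. All 4 Sham-DMI values lay below all 4 Sham-Saline values. This amounts to a change of -18.2% for Adamts5 (log2 fold change -0.29 with an SE of 0.0708; edgeR quasi-likelihood test, adjusted p = 0.011). Groups failed to overlap for 1 of 10 members (Adamts5), and for 17.1% of all tested genes. With each of the 16 libraries left out in turn, the adjusted p for Adamts5 stayed between 0.00929 and 0.0571. Adamts5 has one of the lowest GC contents among the members, 43.7%, beside 43.0% for Adamts6 and 46.8% to 58.5% for the others. With the trends of fold change with GC content and exon length removed, the Adamts5 difference was -0.08 and its call was lost (adjusted p = 0.393).

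Adamts1 had 13.5, 15.3, 20.1 and 15.0 CPM in Sham-Saline and 9.97, 12.9, 13.7 and 12.8 CPM in Sham-DMI. The groups overlapped by 1 pair of mice, as the highest Sham-DMI value exceeded the lowest Sham-Saline value. Adamts1 changed by -22.8% (log2 fold change -0.37 with an SE of 0.117; adjusted p = 0.0356 by the same test). The call was kept with the GC and length trends removed (-0.32, adjusted p = 0.0659). It was lost without Sham-Saline replicate 3, its highest sham library (-0.22, adjusted p = 0.193), and without Sham-DMI replicate 1, the lowest (-0.27, adjusted p = 0.153), and with only the 8 libraries compared (-0.36, adjusted p = 0.109). The second rule, the study's rule for differentially expressed genes (DEGs; nominal p under 0.05 and a log2 fold change of at least 0.32 in size), was met in this comparison by 1 of 10 members (Adamts1) and by 11.5% of all genes. The rule was applied here to the p-values and fold changes of edgeR, whereas the study used DESeq2.

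All 10 members had a negative log2 fold change in Sham-DMI against Sham-Saline, with a median of -0.31, where 53.3% of all tested genes were lower and their median was -0.021. The values of the members that did not pass were -0.55 for Adamts4, -0.44 for Adamts12, -0.36 for Adamts20, -0.32 for Adamts16, -0.23 for both Adamts2 and Adamts6, -0.07 for Adamts10 and -0.01 for Adamts9. The sign of Adamts9 turned to 0.0022 with DESeq2 and 0.0024 with upper-quartile scaling, so that 9 of 10 members were lower there. Adamts9, which has a broad role in versican turnover, had 12.6 to 24.2 CPM in Sham-DMI and 13.4 to 20 CPM in Sham-Saline. Adamts2 stood at 14.8 to 16.3 CPM in Sham-DMI, inside its Sham-Saline range of 13.4 to 21.7 CPM. Adamts10 had 21.7 to 30.6 CPM against 24.8 to 29.8 CPM, Adamts12 had 1.02 to 2.11 against 2.02 to 2.65 CPM and Adamts6 had 2.46 to 3.42 against 3.08 to 3.46 CPM. Adamts20 ranged from 7.02 to 17.2 CPM in Sham-DMI, wider than in any other group. Sham-DMI replicate 1 was the lowest library of its group for 9 of the 10 members, all but Adamts16. Without it, 8 of 10 members were lower, Adamts9 and Adamts10 being the exceptions, and the median was -0.20. Aligned pairs that fell on no gene feature were 7.1% of read pairs in Sham-DMI replicate 1. They were 7.94% to 8.79% in the other Sham-DMI libraries and 8.67% to 9.44% in Sham-Saline. The part of this share in the differences of the members was not tested.

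In several non-neuronal marker lists, too, most genes had lower values in Sham-DMI. Of 7 fibroblast markers 6 were lower (median -0.26, 0 called), of 7 endothelial markers 6 were lower (Tek called), and of 8 markers of pericytes and vascular smooth muscle 7 were lower (Cnn1 called). The summed fibroblast level was 366 to 546 CPM in Sham-Saline and 342 to 514 CPM in Sham-DMI, the summed endothelial level 97.2 to 137 and 102 to 112 CPM, and the summed pericyte and smooth muscle level 272 to 319 and 236 to 265 CPM. Of 6 macrophage markers 6 were lower (Mrc1 called), with sums of 55.4 to 64.8 CPM in Sham-Saline and 44.7 to 57.5 CPM in Sham-DMI. Of 5 markers of perineurium and meninges 4 were lower (Itgb4 called), and these summed to 130 to 191 and 119 to 162 CPM. Neutrophil markers, 7 of 7 lower and 6 called, summed to 8.99 to 34.1 CPM in Sham-Saline and 3.60 to 13.1 CPM in Sham-DMI. Other lists did not fall: of 5 Schwann cell markers 4 were higher (median 0.09, 0 called), and of 4 adipocyte markers 3 were higher (0 called). The 5 satellite glia markers were split, 2 higher and 3 lower, with Fabp7 called higher and Cadm2 called lower. The part of these cell types in the differences of the members was not tested.

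**Figure D2:**
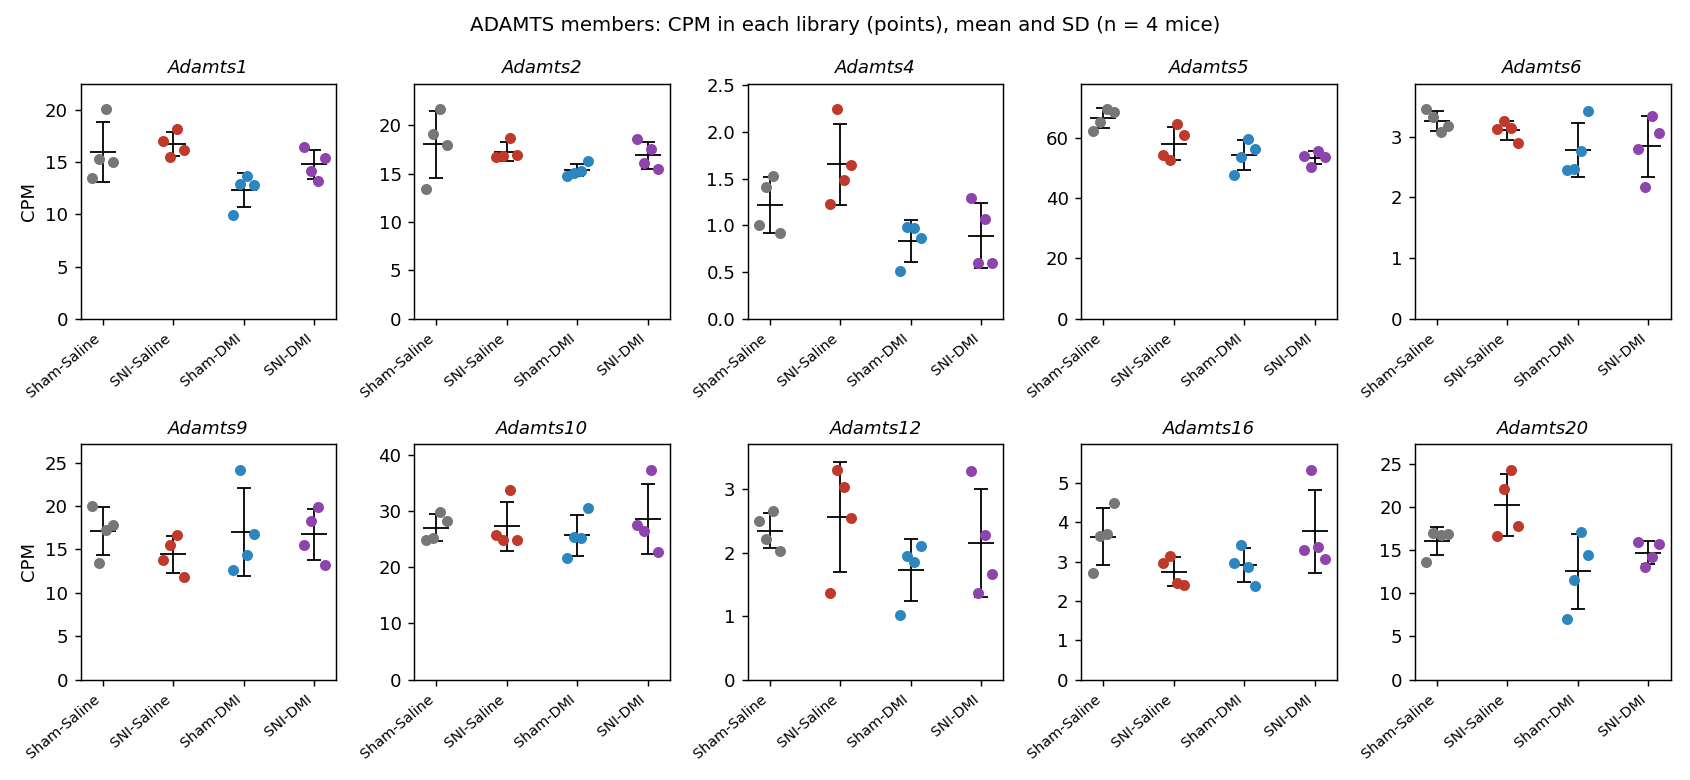
CPM of each of the 10 ADAMTS members in the 4 groups, with 1 point per mouse, a horizontal bar for the mean and whiskers for the SD (n = 4), on linear axes that start at 0. The 4 Sham-DMI points of Adamts5 (47.7 to 59.5 CPM) lie below the 4 Sham-Saline points (62.2 to 69.5 CPM), and those of most other members overlap.

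DMI in injured mice, the comparison of SNI-DMI with SNI-Saline, asks which injury-state transcripts the drug changed. No member passed the adjusted threshold in edgeR (0 of 10, beside 2.93% of all genes). A nominal p under 0.05 was held by 3 of 10 members and by 18.5% of all genes. The count of all genes past the adjusted threshold, 626, ran from 0 to 1842 when single libraries were left out. DESeq2 likewise called 0 members, without an adjusted p for Adamts4. The study's DEG rule, applied to edgeR's p-values, was met by 3 of 10 members and by 5.73% of all genes. These members were Adamts4 and Adamts20 with lower and Adamts16 with higher values.

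Adamts4, the other classical aggrecanase, had the largest difference of any member in any comparison. It had 1.23, 2.25, 1.49 and 1.65 CPM in SNI-Saline and 1.29, 0.597, 1.07 and 0.603 CPM in SNI-DMI. A single SNI-DMI mouse exceeded the lowest SNI-Saline mouse, and the other 3 lay below the whole SNI-Saline range. The log2 fold change was -0.90 (SE 0.275), with an unadjusted p of 0.00418 and an adjusted p of 0.109 in edgeR's quasi-likelihood test. The adjusted p ran from 0.0882 (only the 8 libraries compared) to 0.194 (GC and length trends removed, with the replicate block) over the alternatives, and it was 0.0961 with a stricter count filter and 0.14 with the block alone. Over the fits that leave out 1 library each it ran from 0.0626 (without Sham-DMI replicate 1) to 0.29 (without SNI-DMI replicate 2), with log2 fold changes of -1.12 to -0.70. The leave-outs under 0.1 were those of Sham-DMI replicates 1 and 2, which are not in the contrast. Leaving them out changes the shared spread, the genes tested (21721 and 21686) and so the adjustment over all genes. In sham-operated mice Adamts4 had 1.01, 1.41, 1.53 and 0.921 CPM with saline and 0.512, 0.988, 0.974 and 0.867 CPM with DMI, a difference of -0.55 (SE 0.281, adjusted p = 0.198).

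Of 7 neutrophil markers, 7 were lower in SNI-DMI than in SNI-Saline (median -1.43, S100a8 and Retnlg called). Their summed level was 3.93 to 11.5 CPM against 13.8 to 44.0 CPM. With injury alone, 3 of the 7 were higher and 4 lower, where Adamts4 was 0.44 higher on the log2 scale. Sham-Saline replicate 3 had the highest Adamts4 value of its group, 1.53 CPM, and the lowest neutrophil sum, 8.99 CPM. SNI-Saline replicate 2 had the highest of both in its group (2.25 and 44.0 CPM), as had Sham-DMI replicate 2 (0.988 and 13.1 CPM). In SNI-DMI, replicate 1 had the highest Adamts4 value, 1.29 CPM, and replicate 3 the highest neutrophil sum, 11.5 CPM. The part of neutrophil markers in the Adamts4 values was not tested. Over the 16 libraries, the genes whose log2 CPM was most like that of Adamts4 were Man1a (Pearson's r = 0.86), Pabpc4l (0.85), the neutrophil marker Ly6g (0.85), Pon3 (0.84) and Sec14l5 (0.84). No other of the 7 neutrophil markers was among these genes. Among the other members Adamts4 was most like Adamts12 (r = 0.80, and 0.84 with the group means removed). These correlations are descriptions over libraries that share their groups.

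Adamts20, a relative of Adamts9 that cleaves versican, had 16.7, 22.1, 24.4 and 17.9 CPM in SNI-Saline and 16, 13.1, 14.2 and 15.7 CPM in SNI-DMI. All 4 SNI-DMI values lay below the 4 SNI-Saline values, the only member of 10 without overlap, which held for 13.3% of all genes. The log2 fold change was -0.46 (SE 0.185, adjusted p = 0.194 in edgeR's test). Its adjusted p lay between 0.0622 with only the 8 libraries compared and 0.304 with GC and length trends removed, and with single libraries left out between 0.060 (Sham-DMI replicate 1) and 0.468 (SNI-Saline replicate 3). The log2 fold change of Adamts20 lay between -0.53 and -0.36 in those leave-outs.

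Adamts16 had the opposite sign. Its values were 2.97, 3.14, 2.46 and 2.40 CPM in SNI-Saline and 3.29, 5.34, 3.38 and 3.07 CPM in SNI-DMI, which amounts to 0.46 on the log2 scale with an SE of 0.184 (adjusted p = 0.19). The highest value came from SNI-DMI replicate 2, the library with 257 CPM of skeletal muscle markers. SNI-Saline replicate 2, with 71.5 CPM of these markers, had the highest Adamts16 value of its group, 3.14 CPM. Sham-Saline replicate 1, with 44.7 CPM, had the lowest of its group, 2.71 CPM. The part of muscle markers in these values was not tested. Leaving libraries out in turn gave log2 fold changes of 0.24 to 0.55, with adjusted p-values of 0.153 to 0.554. Adamts1 had 15.5 to 18.2 CPM in SNI-Saline and 13.2 to 16.4 CPM in SNI-DMI, and Adamts9 had 11.8 to 16.7 and 13.2 to 19.9 CPM. The remaining members had log2 fold changes of -0.26 (Adamts12), -0.18 (Adamts1), -0.13 (Adamts6), -0.12 (Adamts5), -0.03 (Adamts2), 0.07 (Adamts10) and 0.21 (Adamts9), with adjusted p-values of 0.357 to 0.908. In all, 7 of 10 members were lower and 3 higher, with a median of -0.13, where 51.0% of all genes were lower.

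**Figure D3:**
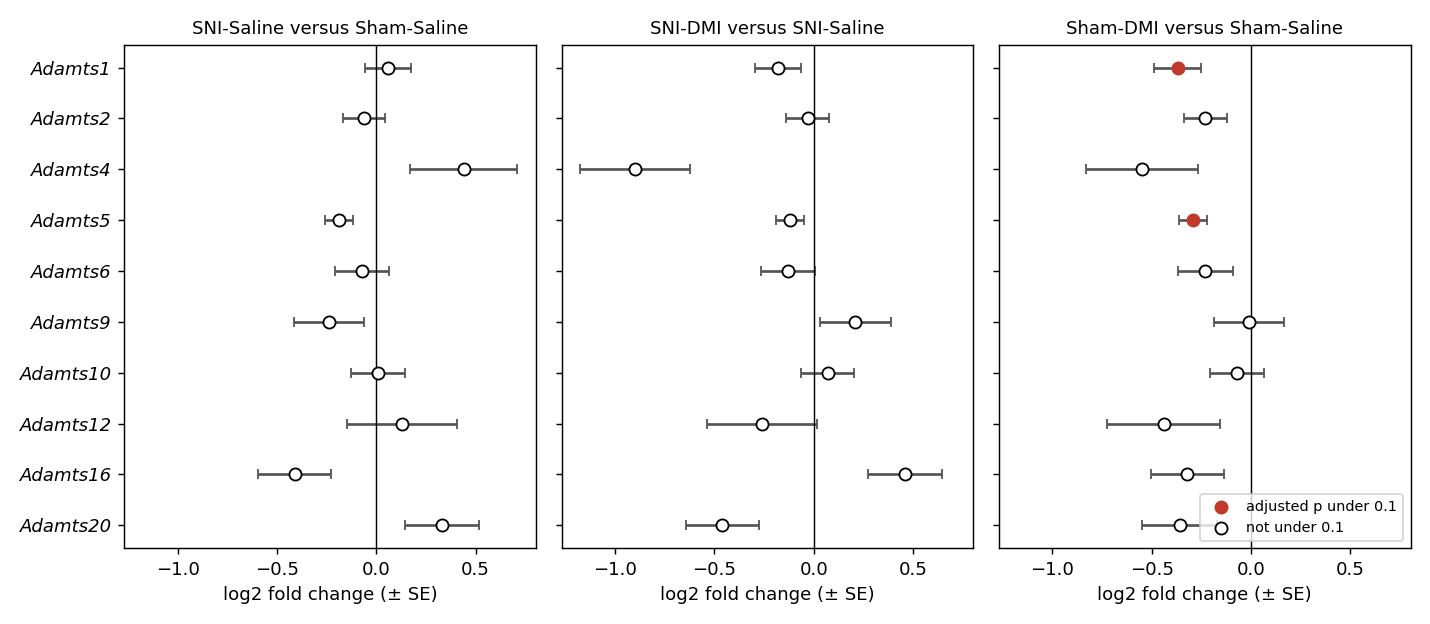
Log2 fold change of each member, with bars for the standard error, in the 3 comparisons of groups. Filled points have an adjusted p under 0.1 in edgeR's quasi-likelihood test, and only Adamts1 (-0.37) and Adamts5 (-0.29) in Sham-DMI versus Sham-Saline are filled. Adamts4 in SNI-DMI versus SNI-Saline lies farthest from 0, at -0.90.

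Nerve injury alone, SNI-Saline against Sham-Saline, moved no member past the adjusted threshold in edgeR (0 of 10, beside 12.0% of all genes), and 2 of 10, Adamts5 and Adamts16, had a nominal p under 0.05. All-gene calls with injury, 2571, were 682 to 3286 with single libraries left out. DESeq2 called 1, Adamts5. The DEG rule was met by 1 of 10 (Adamts16) and by 7.15% of all genes, and 0 of 10 members had groups without overlap, against 15.4% of all genes. The members were split evenly, with 5 higher and 5 lower and a median of -0.02.

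Adamts5 had 54.2, 52.6, 64.4 and 60.8 CPM in SNI-Saline, with 3 of these 4 values below the Sham-Saline range of 62.2 to 69.5 CPM and 1 inside it. The log2 fold change was -0.19 (SE 0.0707, adjusted p = 0.108). The adjusted p was 0.0704 with DESeq2, 0.0923 with the 8 libraries compared and 0.0572 with the replicate block, and when single libraries were left out it ran from 0.0592 (SNI-Saline replicate 3) to 0.324 (SNI-Saline replicate 2). With GC and length trends removed the difference was -0.07 and the adjusted p 0.606, the highest over the alternatives. In SNI-DMI, Adamts5 had 53.9, 50.3, 55.4 and 53.4 CPM.

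Adamts16 had 2.71, 3.64, 3.71 and 4.48 CPM in Sham-Saline, and its log2 fold change with injury was -0.41 (SE 0.184, adjusted p = 0.189). Adamts20 had 13.7, 17, 16.8 and 16.9 CPM in Sham-Saline and was 0.33 higher with injury on the log2 scale (SE 0.185, adjusted p = 0.295). Adamts4 was 0.44 higher on that scale (SE 0.269, adjusted p = 0.343). These groups overlapped for all 3 genes. The other members lay between -0.24 (Adamts9) and 0.13 (Adamts12). Macrophage markers were higher with injury in 6 of 6 cases, with Cd68 and Aif1 called, and summed to 55.4 to 64.8 CPM in Sham-Saline and 62.1 to 106 CPM in SNI-Saline.

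The comparisons share groups, since Sham-Saline serves both injury and DMI in sham, and SNI-Saline both injury and DMI in injured mice. For Adamts4, Adamts20 and Adamts16 the log2 fold changes with injury were 0.44, 0.33 and -0.41, and those with DMI in injured mice were -0.90, -0.46 and 0.46. The same SNI-Saline mice enter both values of each pair, once on each side, so the opposite signs are no separate evidence.

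Whether DMI acted differently in injured and sham-operated mice was tested as the difference between both DMI effects. In edgeR 0 of 10 members and 0.0% of all genes passed the adjusted threshold, with 1692 genes (7.92%) at an unadjusted p under 0.05 and 16 genes called by DESeq2. The member with the largest difference was Adamts16, with 2.97, 3.42, 2.87 and 2.38 CPM in Sham-DMI. DMI went with -0.32 in sham and 0.46 in injured mice, a difference of 0.78 (SE 0.26, unadjusted p = 0.00752, adjusted p = 0.619), which met the DEG rule as 1 of 10 members beside 3.45% of all genes. The differences were 0.20 (SE 0.164) for Adamts1, 0.17 (SE 0.10) for Adamts5, -0.36 (SE 0.393) for Adamts4 and -0.10 (SE 0.263) for Adamts20. With single libraries left out, they ran from 0.06 to 0.27 (Adamts1), 0.09 to 0.21 (Adamts5), -0.59 to -0.18 (Adamts4), -0.31 to 0.08 (Adamts20) and 0.56 to 0.89 (Adamts16). The Adamts1 and Adamts5 calls in sham mice were thus not shown to be particular to sham mice.

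**Figure D4:**
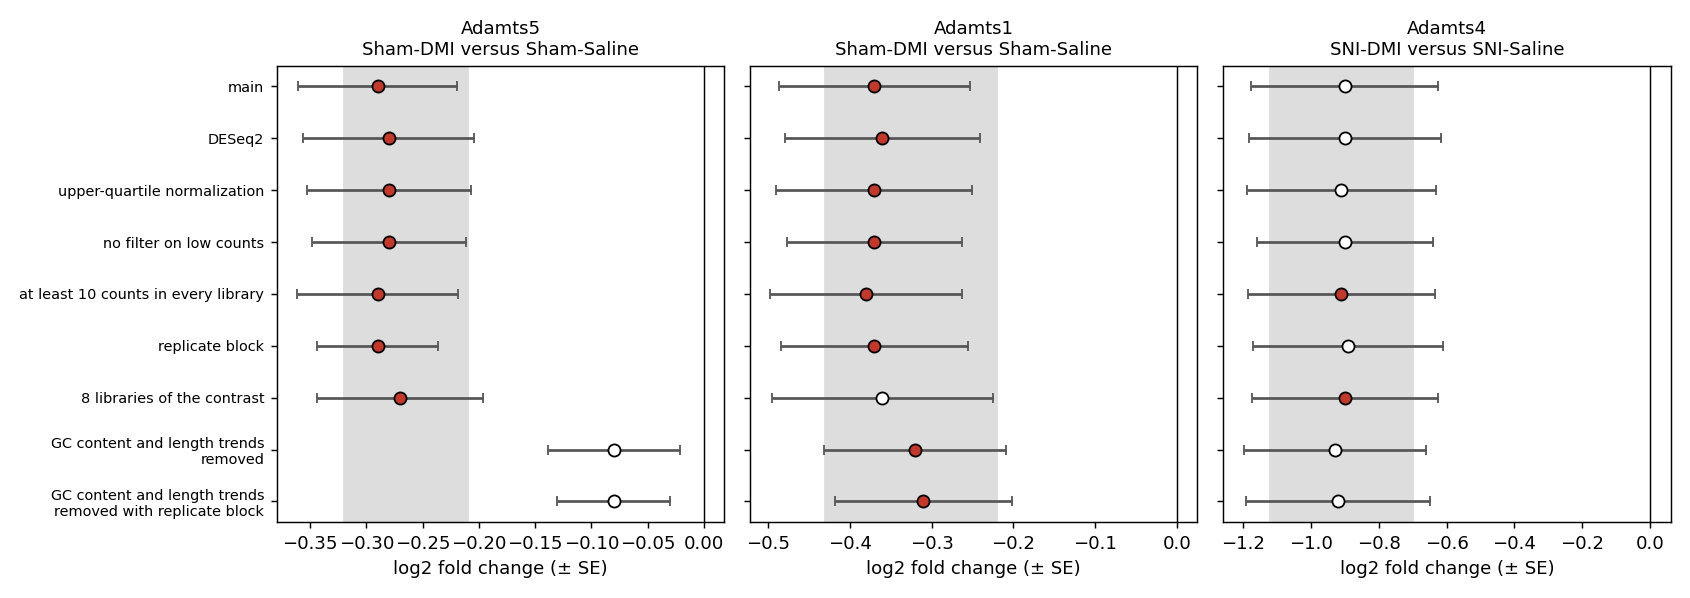
Log2 fold change with its standard error under each processing for Adamts5 and Adamts1 in Sham-DMI versus Sham-Saline and for Adamts4 in SNI-DMI versus SNI-Saline. Filled points have an adjusted p under 0.1 (DESeq2 gave none for Adamts4), and the grey band spans the fits that leave out 1 library each. Adamts5 moves from -0.29 to -0.08 when GC and length trends are removed, Adamts1 stays at -0.38 to -0.31, and Adamts4 stays at -0.93 to -0.89.

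The rest of the family and its partners were described by the same test. Over all tested genes it called 12.0% with injury, 2.93% with DMI in injured mice and 23.4% with DMI in sham mice. Of 9 further ADAMTS proteases 1 fell with injury, Adamts3, a procollagen propeptidase (-0.50, adjusted p = 0.0427), and 1 fell with DMI in sham mice, Adamts14, another enzyme of that kind (-0.67, adjusted p = 0.0207). None of the 9 was called by edgeR with DMI in injured mice (1 at an unadjusted p under 0.05), where DESeq2 called 1, Adamts15 (0.20 in edgeR, adjusted p = 0.142). None of the 6 ADAMTS-like genes was called by edgeR in any of the 3 comparisons. Adamtsl1, the 1 gene at an unadjusted p under 0.05, had -0.86 with DMI in injured mice (adjusted p = 0.125) and was called by DESeq2, a name chosen after its values were seen. The medians of the list were 0.07 with injury, 0.01 with DMI in injured mice and -0.16 with DMI in sham mice.

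Among 13 hyalectans and their partners, the link protein Hapln1 (-0.45, adjusted p = 0.0107) and tenascin-R (Tnr, -0.58, adjusted p = 0.00778) fell with injury, and tenascin-C (Tnc) rose 3.58-fold (adjusted p = 0.000684). With DMI in sham mice 4 of 13 passed, beside 23.4% of all tested genes. Versican (Vcan, -0.43, adjusted p = 0.0408), Hapln1 (-0.30, adjusted p = 0.0245) and Tnr (-0.42, adjusted p = 0.0113) fell, and Hapln4 rose (0.22, adjusted p = 0.0941). Brevican was the most abundant hyalectan, at 21.8 ± 0.696 CPM per kb in Sham-Saline (SD, n = 4), followed by neurocan (2.78 ± 0.275), versican (0.846 ± 0.173) and aggrecan (0.203 ± 0.0332). None of the 13 was called with DMI in injured mice by edgeR (1 at an unadjusted p under 0.05) or DESeq2 (4 without an adjusted p), where Vcan was -0.12, Acan 0.02, Bcan 0.16 and Ncan 0.07. The medians of the 13 genes were -0.11 with injury, -0.01 with DMI in injured mice and -0.01 with DMI in sham mice.

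Of 12 other matrix substrates of the family, syndecan-4 (Sdc4) rose with DMI in injured mice (0.26, adjusted p = 0.0784) and thrombospondin-1 (Thbs1) fell with DMI in sham mice (-0.96, adjusted p = 0.0183), and 10 of 12 were lower in Sham-DMI, with a median of -0.32. Among 7 inhibitors, activators and clearance receptors, the inhibitor Timp1 rose (0.58, adjusted p = 0.0741) and the activating protease Furin fell (-0.31, adjusted p = 0.0496) with injury. With DMI in sham mice 2 of the 7 passed, beside 23.4% of all tested genes. These were Furin (-0.24, adjusted p = 0.0716) and Lrp1 (-0.26, adjusted p = 0.0853), and both fell. Timp3 had 142 ± 18.6 CPM (SD, n = 4) after sham surgery with saline and 114 ± 25 with DMI, and after injury 155 ± 9.59 with saline and 126 ± 16 with DMI. Its log2 fold changes were 0.13 with injury, -0.30 with DMI in injured mice (adjusted p = 0.227) and -0.31 with DMI in sham mice (adjusted p = 0.118, called by DESeq2). With DMI in injured mice 0 of the 7 were called by edgeR (1, Timp3, at an unadjusted p under 0.05) or DESeq2. Of the 12 substrates, 0 were called with injury by either tool, with 0 at an unadjusted p under 0.05.

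**Figure D5:**
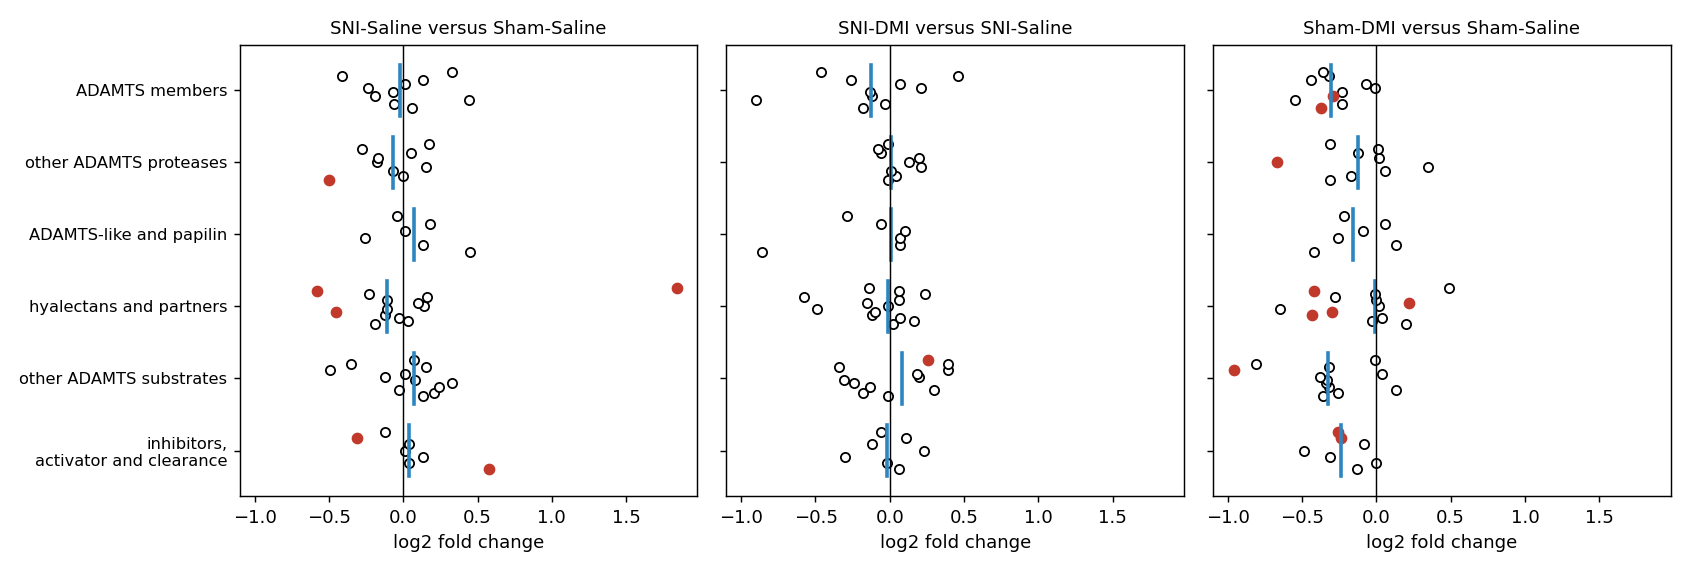
Log2 fold changes of the 10 members and of 5 lists of related genes in the 3 comparisons, with 1 point per gene, filled where the adjusted p was under 0.1, and a blue bar at the median of each list. The members' median is -0.31 with DMI in sham mice and -0.13 with DMI in injured mice, and Tnc, at 1.84 with injury, is the farthest point to the right.

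The members varied together across libraries to different degrees. Over 45 pairs of members, 35 had a positive correlation of log2 CPM over the 16 libraries, with a median r of 0.38 and a range from -0.42 to 0.80. Adamts1 was most like Adamts20 (r = 0.80, 0.65 with group means removed), Adamts2 was most like Adamts1 (0.72) and Adamts5 most like its neighbour Adamts1 (0.58). Adamts16 had no close partner, its highest correlation being 0.32 with Adamts9. All libraries share the tissue and the groups, so these values are a description.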

How the data were processed

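RNA of L3-6 DRGs from 16 mice (4 per group, 1 mouse per library) was sequenced by the authors with paired reads of 50 bases from a stranded kit, aligned to mm10 and counted per Ensembl gene. The submitters' processing notes name HISAT2, HTSeq and DESeq2. The deposited counts are raw whole numbers, and the 5 closing lines of each table, which hold reads not assigned to a gene, were left out. Reads on genes were 79.56% to 81.17% of read pairs, and aligned pairs on no gene feature were 7.1% to 9.44%. Of 155 genes that lie wholly under exons of well-covered genes on the opposite strand, 5 had any count, so the counting made no visible use of strand. Symbols, coordinates and exon lengths come from GENCODE M21 (GRCm38), which held 52403 of the 52636 genes listed.

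Counts of all 16 libraries entered 1 fit in edgeR 4.0.16 (R 4.3.3), with TMM scaling, filterByExpr and the quasi-likelihood test, and p-values were adjusted by Benjamini-Hochberg over the 21371 genes tested, with a threshold of 0.1. CPM used the TMM library sizes. The code was checked on simulated counts. Alternatives were DESeq2 1.42.0, upper-quartile scaling, no count filter, at least 10 counts in every library, the replicate number as a block, only the 8 libraries compared, trends of GC content and exon length removed (mgcv 1.9.3), the study's DEG rule, and each library left out. The DEG rule used the p-values and fold changes of edgeR, whereas the study used DESeq2. The members and gene lists were chosen with earlier results of these data known. All 10 members were named in every comparison. Of the lists of the family, its substrates and inhibitors, genes with an adjusted p under 0.1 were named, at most 4 per list, and Timp3, Acan, Vcan, Bcan and Ncan in any case. Cell type marker lists are given by counts, with some of their called genes named. Adamts15 and Adamtsl1 were named after their values were seen. Correlations used log2 CPM with a prior count of 2. Protein sequences were not used here.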

Additional observations from a re-analysis of the deposited data

Results flagged for a closer look

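In each member and group of 4 mice, the gap between the highest or lowest value and its neighbour was compared with the range by Dixon's criterion. Of 40 sets tested 4 passed, where chance gives about 1 in 20. Adamts2 was highest in SNI-Saline replicate 3, at 18.7 CPM against 16.7 to 16.9 in the other 3 mice. Adamts10 was highest in the same library, at 33.7 CPM against 24.8 to 25.7. Adamts16 was highest in SNI-DMI replicate 2, at 5.34 CPM against 3.07 to 3.38, and this is the library with 257 CPM of skeletal muscle markers. Adamts20 was lowest in Sham-Saline replicate 1, at 13.7 CPM against 16.8 to 17, and this library held 44.7 CPM of skeletal muscle markers. The part of these markers was not tested.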

How the results depend on the processing

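Over the single fold changes of the 10 members, 897 values under the alternatives kept their direction and side of the threshold, 14 newly passed it, 5 no longer passed and 34 changed sign.

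The number of members called with injury, 0, became 1 under the DEG rule (Adamts16), 1 with DESeq2 and 1 with the replicate block (Adamts5 in both), and 2 with the 8 libraries compared (Adamts5 and Adamts20). It was 0 to 1 when single libraries were left out. With DMI in injured mice, 0 became 3 under the DEG rule, 1 with at least 10 counts in every library (Adamts4) and 2 with the 8 libraries compared (Adamts4 and Adamts20), and 0 to 2 with libraries left out. With DMI in sham mice, 2 became 1 under the DEG rule (Adamts1), 1 with the 8 libraries compared (Adamts5), and 1 with GC and length trends removed, with or without the replicate block (Adamts1 in both). Leaving out libraries gave 1 to 3. For the difference between both DMI effects, 0 became 1 under the DEG rule (Adamts16). The cause of these shifts was not tested, except that the 8-library fit estimates the spread from fewer mice.

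Over all genes, the 2571 injury calls became 3434 with DESeq2 or the 8 libraries compared and 2106 with the replicate block. With GC and length trends removed they were 1044, and 595 with the block too. Leaving out Sham-Saline replicate 3, 4 or 1 gave 682, 1218 or 1257. Leaving out SNI-Saline replicate 1, 2 or 4 gave 748, 771 or 1616, and other libraries 2244 to 3286. The 626 calls with DMI in injured mice became 1898 with DESeq2, 172 with the replicate block, 1812 with the 8 libraries compared, 51 with the trends removed and 0 with these and the block. With a library left out they were 0 (each of SNI-DMI replicates 1 to 3 and SNI-Saline replicates 1 and 3), 38 (SNI-Saline replicate 4), 226 (Sham-Saline replicate 4), 241 (Sham-Saline replicate 2), 311 (Sham-DMI replicate 3), 984 (SNI-Saline replicate 2), 1213 (Sham-DMI replicate 2), 1842 (Sham-DMI replicate 1) and 459 to 716 (others). With DMI in sham mice, 5010 calls became 3286 without Sham-Saline replicate 3.

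Of 24 same-numbered pairs of mice, 5 had a correlation of deviations over 0.1 (range -0.08 to 0.18). Pairs with different numbers were not computed, so these values cannot decide whether the replicate numbers pair the mice. With the replicate block, the adjusted p of Adamts5 with injury was 0.0572 (log2 fold change -0.20), and the block changed no other call of a member.

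Signs changed mostly near 0. With DMI in sham mice, Adamts9 (-0.0058) became 0.0022 with DESeq2, 0.0024 with upper-quartile scaling, 0.0022 without a filter, 0.01 with the 8 libraries compared, 0.13 with GC and length trends removed and 0.11 with these and the replicate block. Adamts6 with injury became 0.03 with these trends removed, with or without the block, and Adamts5 with DMI in injured mice became 0.0002 with both. When single libraries were left out, the injury values ran from -0.17 to 0.05 (Adamts2), -0.10 to 0.08 (Adamts10) and -0.0084 to 0.35 (Adamts12). With DMI in injured mice they ran from -0.07 to 0.01 (Adamts2) and -0.07 to 0.18 (Adamts10), and in sham mice from -0.21 to 0.13 (Adamts9) and -0.15 to 0.02 (Adamts10). For the difference between both DMI effects they ran from -0.02 to 0.25 (Adamts10), -0.11 to 0.34 (Adamts12) and -0.31 to 0.08 (Adamts20).

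Adamts2 with DMI in sham mice was called without Sham-Saline replicate 1 (-0.33, adjusted p = 0.0136), over leave-outs of -0.33 to -0.11 with adjusted p-values up to 0.549 (without Sham-Saline replicate 3). Adamts20 in the same comparison was called without Sham-DMI replicate 3 (-0.53, adjusted p = 0.0616), over leave-outs of -0.53 to -0.15 with adjusted p-values up to 0.568 (without Sham-DMI replicate 1). Adamts4 rests on 30 to 138 reads per library, which limits its precision.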
